A study of Mus musculus with 2 samples.

Results

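The Slitrk genes (Slitrk1 to Slitrk6) and the Lrrtm genes (Lrrtm1 to Lrrtm4) encode transmembrane proteins with extracellular leucine-rich repeats that organize synapses. These 10 genes were taken by name from the 55536 annotated genes of the gene tables, and all 10 were found. They were measured in the left cerebral cortex of 4-day-old male B6CASTF1/J mice, the first-generation hybrids of the C57BL/6 and CAST strains, supplied by The Jackson Laboratory. The data are 2 total RNA libraries, replicate 1 and replicate 2, which form a single group, so no contrast between conditions was possible. Per the labels, each library was made from 300 ng of RNA with ribosomal RNA reduced, strand kept and ERCC spike-in RNAs added. The labels number the tissue samples as different males, yet give both the same donor identifier, so the spread between the libraries may be partly technical. Alleles were not told apart, and whether CAST reads were lost when set against the mm10 genome was not tested.

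Slitrk proteins sit mainly on the postsynaptic side and bind receptor protein tyrosine phosphatases of the LAR type (Ptprd, Ptprs and Ptprf) on the axon. Lrrtm proteins are postsynaptic partners of neurexins, and Lrrtm4 also binds glypicans, proteoglycans whose heparan sulfate chains carry the contact. Such pairs of proteins bridge the cleft and recruit presynaptic and postsynaptic machinery as synapses form, a process under way in rodent cortex in the first weeks after birth.

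The gene order on the chromosome set some members beside each other while their levels lay far apart, so promoter windows of 1 such cluster are shown. On chromosome 14, Slitrk1, Slitrk6 and Slitrk5 follow one another with gaps of 1.83 and 0.92 Mb and with 0 protein-coding genes in either gap. RefSeq windows of 300 bases (build GRCm38.p6), 250 before and 50 after an annotated start, are printed 5′ to 3′ in lower case with every CG dinucleotide in capitals. The Slitrk1 window is chr14:108914190-108914489 on the minus strand, the Slitrk6 window chr14:110755100-110755399 on the minus strand and the Slitrk5 window chr14:111675777-111676076 on the plus strand.
Slitrk1: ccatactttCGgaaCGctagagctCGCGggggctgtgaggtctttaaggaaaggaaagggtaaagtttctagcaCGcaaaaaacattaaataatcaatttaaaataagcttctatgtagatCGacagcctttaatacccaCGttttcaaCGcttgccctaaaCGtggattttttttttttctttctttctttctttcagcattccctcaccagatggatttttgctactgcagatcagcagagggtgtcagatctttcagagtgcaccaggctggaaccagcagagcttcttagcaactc
Slitrk6: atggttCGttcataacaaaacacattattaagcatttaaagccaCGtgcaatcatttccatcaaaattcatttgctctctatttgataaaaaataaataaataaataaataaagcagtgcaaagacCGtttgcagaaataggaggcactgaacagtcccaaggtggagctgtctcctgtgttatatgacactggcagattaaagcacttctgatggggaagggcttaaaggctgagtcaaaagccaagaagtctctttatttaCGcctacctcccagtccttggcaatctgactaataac
Slitrk5: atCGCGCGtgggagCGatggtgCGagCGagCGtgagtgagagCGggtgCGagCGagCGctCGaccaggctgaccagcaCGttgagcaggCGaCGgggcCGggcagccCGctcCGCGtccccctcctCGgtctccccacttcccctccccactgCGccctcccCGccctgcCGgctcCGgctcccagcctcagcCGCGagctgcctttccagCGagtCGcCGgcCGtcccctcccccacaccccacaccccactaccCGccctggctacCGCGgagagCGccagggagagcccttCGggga
The Slitrk5 window held 35 CG dinucleotides at 74.3% G and C, more CG than 93.0% of all 32851 RefSeq windows. The Slitrk6 window held 4 at 38.3% G and C, and the Slitrk1 window 9 at 42.3%, against a median over all windows of 7 at 52.7%. The annotated start in the Slitrk6 window is that of its only transcript model. That of the Slitrk5 window lies 178 bases from the start of Slitrk5-202, the minor model, and that of the Slitrk1 window lies 81 bases from Slitrk1-201. The start of the main model Slitrk5-201, at base 111675097, lies outside the printed Slitrk5 window. Slitrk1-201 starts at base 108914158, also outside its printed window. Whether CG content went with level was not tested. The motif TATAAA, read on both strands, occurred in 1 of 10 windows of the 8 members with a window (Lrrtm4), against 13.6% of all windows.

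Of the 10 genes, 9 were detected at 1 TPM or more in both libraries, and Slitrk6 was not. TPM sets a gene's transcripts, per length, against all transcripts of the library, so that levels of different genes can be set side by side. The same threshold was passed by 28.0% of annotated genes and by 59.4% of nuclear protein-coding genes. The median over the 10 members was 21.2 TPM, against 17.6 TPM over the detected nuclear protein-coding genes and 4.17 TPM over all of them. In bulk tissue, fewer cells of a type and less RNA per cell cannot be told apart. The cortex label was matched by the excitatory cortical neuron markers Slc17a7, Neurod6, Neurod2 and Tbr1, which were all detected, at mean levels of 62.5 to 146 TPM.

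Among the Slitrk genes, Slitrk5 was the highest, and it was the highest of all 10 members. Slitrk5 (chr14:111675097-111683141, plus strand), whose loss in mice gives obsessive-compulsive-like behavior and whose protein interacts with the neurotrophin receptor TrkB, stood at 46.38 TPM in replicate 1 and 41.02 TPM in replicate 2 (43.7 ± 3.79, SD, n = 2). Slitrk1 (chr14:108908800-108914158, minus strand), studied in humans for its link to Tourette syndrome, stood at 28.29 and 23.07 TPM (25.7 ± 3.69). Both Slitrk5 values lay above both Slitrk1 values.

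Slitrk3 (chr3:73047265-73057803, minus strand) promotes inhibitory synapses through Ptprd, whereas the other Slitrk proteins studied at synapses act largely at excitatory ones. Its levels were 24.49 TPM in replicate 1 and 23.36 TPM in replicate 2 (23.9 ± 0.799), within the range of Slitrk1. The X-linked pair Slitrk2 (chrX:66649318-66661393, plus strand) and Slitrk4 (chrX:64264885-64276996, minus strand) lay lower. Slitrk2 was at 16.90 and 14.14 TPM (15.5 ± 1.95). Slitrk4 was at 15.29 and 13.90 TPM (14.6 ± 0.983), and the values of the pair overlapped.

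Slitrk6 (chr14:110748580-110755149, minus strand), known for its roles in the inner ear and the eye, was read 32 times in replicate 1 and 50 times in replicate 2. Its levels were 0.45 and 0.63 TPM (0.54 ± 0.13), with deposited TPM intervals of 0.301 to 0.605 in replicate 1 and 0.452 to 0.786 in replicate 2. All bounds lay under 1 TPM. Slitrk5, its neighbor on chromosome 14, was 103 times as high in replicate 1 and 65.1 times in replicate 2.

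The Lrrtm genes were all detected and lay closer together than the Slitrk genes. Lrrtm1 (chr6:77242689-77257791, plus strand), which acts at excitatory synapses, led them with 33.27 TPM in replicate 1 and 31.54 TPM in replicate 2 (32.4 ± 1.22). Lrrtm4 (chr6:80018877-80810143, plus strand), a neurexin and glypican ligand at excitatory synapses, followed with 22.63 and 22.00 TPM (22.3 ± 0.445). Both Lrrtm1 values exceeded those of the other Lrrtm genes.

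Lrrtm2 (chr18:35209003-35215024, minus strand), which holds AMPA-type glutamate receptors at excitatory synapses, was at 20.59 TPM in replicate 1 and 19.43 TPM in replicate 2 (20.0 ± 0.820). Lrrtm3 (chr10:63928472-64090277, minus strand), a further excitatory synapse organizer, was at 19.76 and 17.86 TPM (18.8 ± 1.34). The values of Lrrtm2 and Lrrtm3 overlapped, although Lrrtm2 was the higher in each library.

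By mean level the order was Slitrk5, Lrrtm1, Slitrk1, Slitrk3, Lrrtm4, Lrrtm2, Lrrtm3, Slitrk2, Slitrk4 and Slitrk6. Neighbors in this order were separate, with both values of the higher gene above both of the lower, in 6 of 9 pairs. The pairs Slitrk1 and Slitrk3, Lrrtm2 and Lrrtm3, and Slitrk2 and Slitrk4 overlapped. Among the 9 detected members the highest mean was 2.99 times the lowest.

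**Figure D1:**
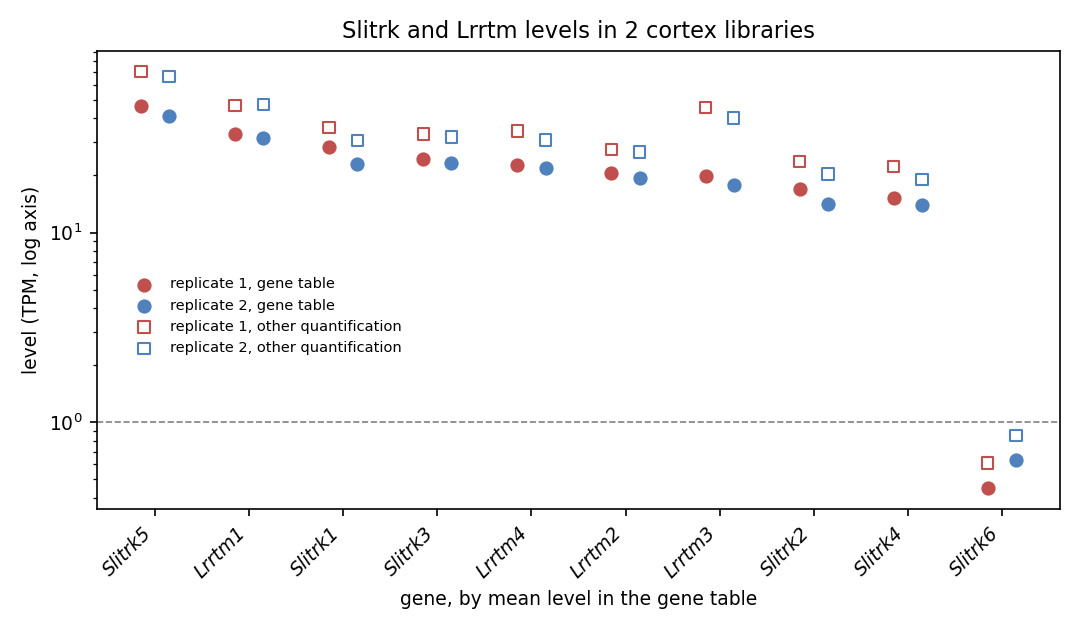
Level in TPM (log axis) of each Slitrk and Lrrtm gene in replicate 1 (red) and replicate 2 (blue). Filled circles are the gene tables and open squares the other quantification deposited for the same libraries, and the dashed line marks 1 TPM. Slitrk6 alone lies under the line, at 0.45 and 0.63 TPM in the gene tables, and Lrrtm3 shows the widest gap between circles and squares.

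The other transcript quantification deposited by the authors gave higher values for all 10 members, and the median of its gene-by-gene ratio to the gene tables over 13045 detected coding genes was 1.48. Relative to the gene tables, its members lay between 1.29 times (Slitrk1) and 1.57 times (Slitrk5), apart from Lrrtm3 at 2.28 times. Lrrtm3 reached 45.7 TPM in replicate 1 and 40.2 TPM in replicate 2 there, and moved up to the third place in the order. Slitrk5 and Lrrtm1 stayed first and second, and Slitrk2, Slitrk4 and Slitrk6 stayed last.

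Summed over each family, Slitrk transcripts exceeded Lrrtm transcripts in both libraries. The 6 Slitrk genes summed to 131.8 TPM in replicate 1 and 116.12 TPM in replicate 2 (124 ± 11.1), and the 4 Lrrtm genes to 96.25 and 90.83 TPM (93.5 ± 3.83). The log2 ratio of the Slitrk sum over the Lrrtm sum was 0.45 in replicate 1 and 0.35 in replicate 2 (0.40 ± 0.07). Slitrk5 made up 35.3 ± 0.0961% of the Slitrk sum, Slitrk1 20.7 ± 1.13%, Slitrk3 19.3 ± 1.09%, Slitrk2 12.5 ± 0.456% and Slitrk4 11.8 ± 0.261%. Slitrk6 made up 0.44 ± 0.14%. Lrrtm1 made up 34.6 ± 0.112% of the Lrrtm sum, and Lrrtm4, Lrrtm2 and Lrrtm3 23.9 ± 0.502%, 21.4 ± 0.000422% and 20.1 ± 0.613%.

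The presynaptic partners lay above the members. None of the 10 members reached the level of Ptprs, Ptprd, Ptprf, Nrxn2 or Nrxn3. The Slitrk sum of 131.8 TPM in replicate 1 and 116.12 TPM in replicate 2 stood against 749.55 and 675.89 TPM for the LAR-type receptors, which was 5.75 ± 0.0945 times the Slitrk sum. Ptprs was at 396 ± 20.7 TPM, Ptprd, the receptor through which Slitrk3 acts, at 209 ± 20.6 TPM and Ptprf at 108 ± 10.7 TPM. Lrrtm1, the highest Lrrtm gene, stood at 32.4 ± 1.22 TPM, against 361 ± 20.1 TPM for the neurexin gene Nrxn2 and 76.2 ± 0.219 TPM for Nrxn3.

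Glypicans spanned the level of Lrrtm4, which stood at 22.3 ± 0.445 TPM. Gpc1 at 83.3 ± 4.90 TPM and Gpc2 at 41.8 ± 14.5 TPM were higher than Lrrtm4. Lower than Lrrtm4 were Gpc5 at 14.6 ± 1.33 TPM, Gpc6 at 12.3 ± 1.26 TPM, Gpc3 at 10.7 ± 0.721 TPM and Gpc4, a known Lrrtm4 ligand, at 9.54 ± 0.339 TPM. For Slitrk5, Ntrk2, the gene of TrkB, was at 150 ± 7.90 TPM and its ligand gene Bdnf at 1.75 ± 0.163 TPM.

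Other organizers with leucine-rich repeats covered a wider range than the detected members. Of 20 such genes, 18 were detected, with a median of 23.3 TPM, against 9 of 10 and a median of 21.2 TPM for the members. The highest were Lrrc4b at 186 ± 10.7 TPM and Lingo1, a component of the Nogo receptor complex, at 116 ± 5.18 TPM. Next came the synaptic adhesion-like genes Lrfn5 at 71.0 ± 6.52 TPM and Lrfn1 at 61.6 ± 1.34 TPM. The lowest was Lingo4 at 0.78 ± 0.0707 TPM. By mean level, 6 of the 20 lay above Slitrk5, the highest member, but the values of some of these 6 overlapped those of Slitrk5. The netrin-G genes Ntng2 and Ntng1, whose proteins bind some Lrrc4-family proteins, were at 69.5 ± 0.502 and 9.30 ± 0.516 TPM.

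Other postsynaptic organizers were set beside the members as well. Of 5 such genes, 4 lay above Slitrk5: the neuroligin genes Nlgn2 at 120 ± 1.82 TPM, Nlgn3 at 84.2 ± 1.72 TPM and Nlgn1 at 53.8 ± 1.70 TPM, and Ntrk3 at 59.2 ± 8.17 TPM. Il1rapl1 was at 11.5 ± 0.488 TPM, lower than the 9 detected members. Among the scaffold genes, Dlg4, which encodes PSD-95, was at 249 ± 1.09 TPM, Dlg2 at 162 ± 6.39 TPM and Dlg3 at 43.7 ± 2.48 TPM. Gphn, which encodes the gephyrin of inhibitory synapses, was at 35.3 ± 0.219 TPM and Dlg1 at 25.3 ± 0.368 TPM.

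**Figure D2:**
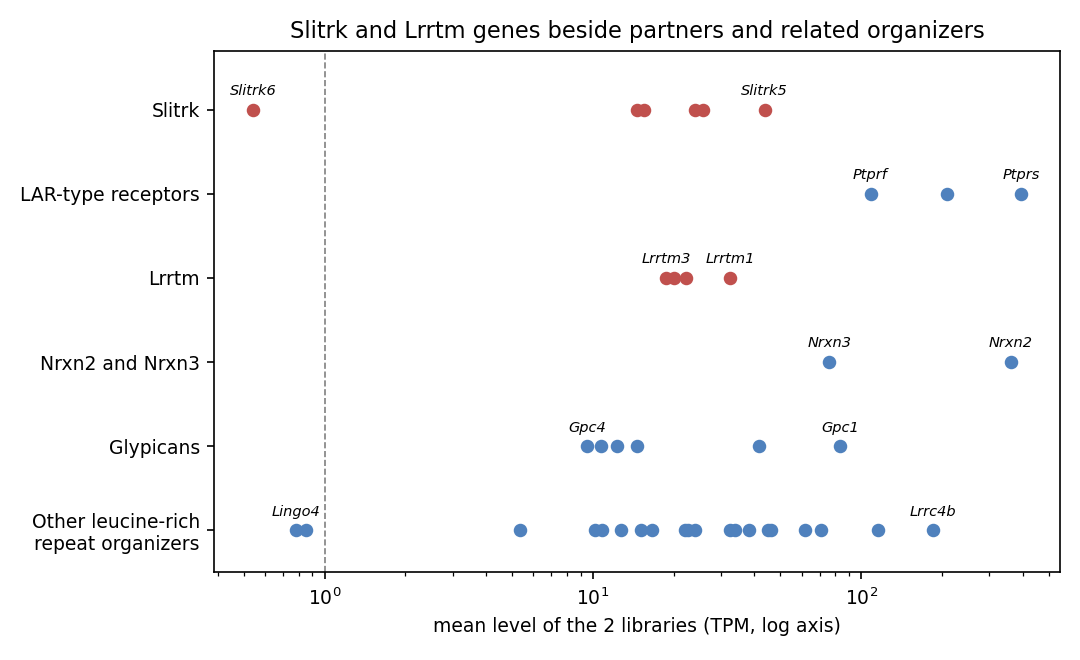
Mean level over the 2 libraries in TPM (log axis), 1 point a gene, for the Slitrk and Lrrtm genes (red) and for partners and related organizers (blue). The names mark the lowest and the highest gene of each row, and the dashed line marks 1 TPM. The LAR-type receptors, Nrxn2 and Nrxn3 lie above Slitrk5, whose mean is 43.7 TPM.

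Transcript models carried the Slitrk levels as coding RNA, while part of the Lrrtm level lay in models annotated as noncoding or as targets of decay. The 6 Slitrk genes had coding models only, and for each the longest protein was encoded by 1 exon. Slitrk1-201 and Slitrk6-201 are the only models of their genes. Slitrk5-201 took 84.88% of its gene in replicate 1 and 80.91% in replicate 2. Slitrk3 was split between Slitrk3-202 at 58.8 ± 3.47% and Slitrk3-201 at 41.2 ± 3.47%.

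Both X-linked genes have a short and a long coding model that encode proteins of equal length. The long model Slitrk2-202 of 7769 bases held 45.20% of the gene in replicate 1 and 38.46% in replicate 2, and Slitrk2-201 of 2992 bases held the rest. The long Slitrk4-201 of 8494 bases held 50.56 and 38.56%, and Slitrk4-202 of 3513 bases 44.50 and 54.40%. For both genes the longer model held a larger share in replicate 1 than in replicate 2. The effective length of Slitrk4 was 5794 bases in replicate 1 and 5137 bases in replicate 2, so its TPM and its count need not differ by the same fold.

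For Lrrtm1, the coding models Lrrtm1-202 and Lrrtm1-203 held 51.2 ± 4.30% and 30.2 ± 3.02%. Lrrtm1-201, annotated as a target of nonsense-mediated decay although its coding sequence gives the same 522-residue length, held 13.42% in replicate 1 and 23.77% in replicate 2. Lrrtm2-201 held 77.6 ± 1.54% of Lrrtm2, and the retained-intron model Lrrtm2-202 held 18.54 and 12.41%. Lrrtm4 had 8 models, all coding, led by Lrrtm4-208 at 29.2 ± 2.88%.

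Lrrtm3 had the smallest coding share. Its only coding model, Lrrtm3-201, held 40.76% of the gene in replicate 1 and 39.49% in replicate 2, and the retained-intron model Lrrtm3-204 held 49.45 and 38.59%. In the other quantification Lrrtm3-201 held 25.7 and 24.6%, and the short processed transcripts Lrrtm3-202 and Lrrtm3-203 together held more than any other model. Summed over coding models only, a setting chosen after the data were seen, Lrrtm3 stood at 8.06 TPM in replicate 1 and 7.05 TPM in replicate 2 and dropped to the ninth place in the order. Lrrtm1 then stood at 28.81 and 24.04 TPM and Lrrtm2 at 16.77 and 17.01 TPM.

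The members could be told apart by sequence. Of all stretches of 31 bases in a member's transcripts, 0% occurred in another member and at most 0.734% (Slitrk4) in any other gene. The longest proteins had 696 residues for Slitrk1, 846 for Slitrk2, 980 for Slitrk3, 837 for Slitrk4, 957 for Slitrk5 and 840 for Slitrk6. Those of Lrrtm1 to Lrrtm4 had 522, 515, 582 and 591 residues. In global alignment, identity was 41.8 to 51.9% within the Slitrk family, 44.0 to 60.7% within the Lrrtm family and 26.7 to 34.8% between the families. The closest pair was Lrrtm3 and Lrrtm4 at 60.7%.

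A feature of the Lrrtm family is that Lrrtm1, Lrrtm2 and Lrrtm3 each lie inside an intron of the main models of an alpha-catenin gene, on the opposite strand. Lrrtm1, at 33.27 TPM in replicate 1 and 31.54 TPM in replicate 2, lies in an intron of 461237 bases of Ctnna2, which was at 88.96 and 86.68 TPM, 2.71 ± 0.0526 times Lrrtm1. Lrrtm2, at 20.59 and 19.43 TPM, lies in an intron of 39511 bases of Ctnna1. Ctnna1 was at 20.80 and 16.44 TPM, 0.93 ± 0.12 times Lrrtm2, above it in replicate 1 and below it in replicate 2. In the other quantification Ctnna1, at 40.4 and 31.7 TPM, was above Lrrtm2, at 27.4 and 26.5 TPM, in both libraries. Lrrtm3, at 19.76 and 17.86 TPM, lies in an intron of 397872 bases of Ctnna3, which was at 0.45 and 0.47 TPM, so that Lrrtm3 was 41.0 ± 4.18 times its host. Some minor models of the hosts have an exon that touches the member, namely Ctnna1-202 and Ctnna1-203 at Lrrtm2, with 2.45 and 2.57% of Ctnna1, and Ctnna3-205 at Lrrtm3, with 0% of Ctnna3. Whether the counting used strand is not given in the sources used here, and without it the reads of a gene and of an overlapping gene on the other strand cannot be told apart.

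Between the libraries, 5 of the 10 members differed, all of them higher in replicate 1, against 26.7% of the 20385 genes tested. The exact binomial test behind these calls compares these 2 libraries, not conditions, and its errors cover counting only. Of all genes called, 47.9% were higher in replicate 1. The members had 1777 counts or more over both libraries apart from Slitrk6, against a median of 542 over the genes tested, and among detected coding genes 33.5% were called. The median absolute log2 ratio was 0.18 for the members, 0.18 for all genes tested and 0.13 for detected coding genes.

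The calls fell on Slitrk1, Slitrk2, Slitrk4, Slitrk5 and Lrrtm3. Slitrk2 had 1454 counts in replicate 1 and 1288 in replicate 2, a log2 ratio of replicate 1 over replicate 2 of 0.28 (counting SE 0.0552, Benjamini-Hochberg adjusted p = 5.59e-06 in a two-sided exact binomial test). Slitrk4 had 1508 and 1375 counts (log2 ratio 0.24, SE 0.0538, exact binomial adjusted p = 9.92e-05). Slitrk1 had 2534 and 2338 counts (0.22, SE 0.0414, exact binomial adjusted p = 1.50e-06). These ratios are of counts scaled to library size, and replicate 2 was the deeper library.

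Lrrtm3 had 920 counts in replicate 1 and 857 in replicate 2 (log2 ratio 0.21, SE 0.0685, exact binomial adjusted p = 0.0130). Slitrk5 had 3260 and 3137 counts (0.16, SE 0.0361, exact binomial adjusted p = 9.03e-05). All 5 folds lay between 1.12 and 1.21. Slitrk3, Lrrtm1, Lrrtm2 and Lrrtm4 had log2 ratios of 0.01, -0.02, 0.00 and -0.05 and did not pass the exact test, with adjusted p of 0.913, 0.847, 0.999 and 0.596. For Slitrk6 the log2 ratio was -0.53 with a counting SE of 0.324 (exact binomial adjusted p = 0.235), so a difference of that size was not detectable at its depth.

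**Figure D3:**
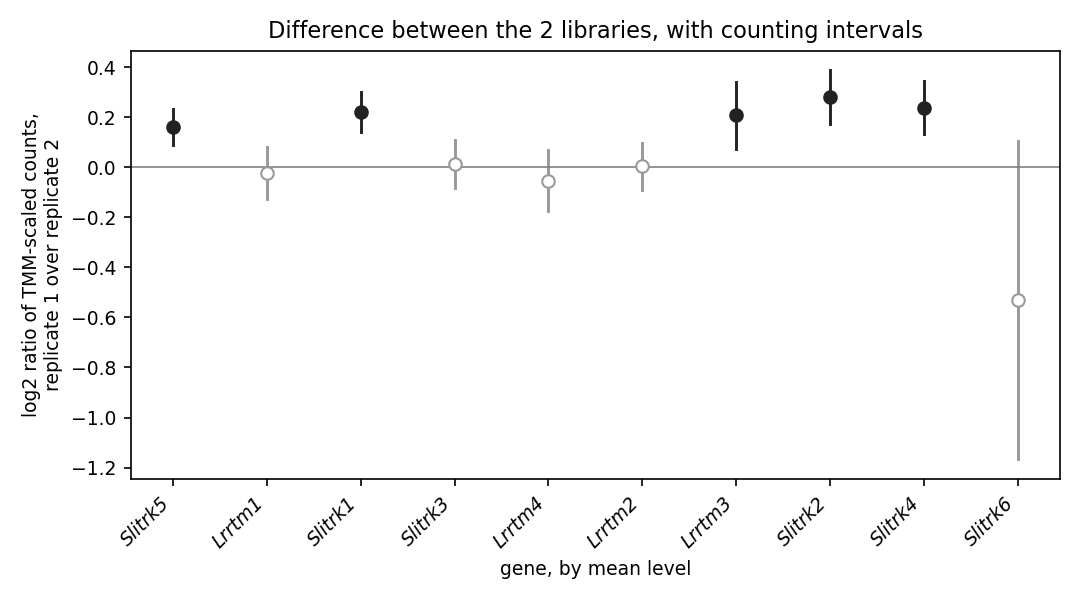
Log2 ratio of TMM-scaled counts, replicate 1 over replicate 2, for each gene, with lines for the 95% counting interval. Filled points passed the exact binomial test after adjustment over all genes tested, and open points did not. The 5 filled points lie between 0.16 and 0.28, and the interval of Slitrk6 is the widest.

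Markers of other cells and of other regions differed between the same libraries. Interneuron markers (Gad1, Gad2, Slc32a1, Sst and Npy) summed to 297 TPM in replicate 1 and 373 TPM in replicate 2, and 5 of 5 were called higher in replicate 2. Striatal markers summed to 65.7 and 102 TPM, with 5 of 5 called higher in replicate 2. Olfactory bulb output neuron markers summed to 7.45 and 37.3 TPM (3 of 3), and red blood cell markers to 148 and 304 TPM (3 of 3). Choroid plexus markers summed to 1.75 and 33.6 TPM, with 1 of 3 called higher in replicate 2. Among excitatory neuron markers, Neurod6 was called higher in replicate 1, at 124 TPM there and 97.9 TPM in replicate 2, and Slc17a7 higher in replicate 2, at 133 TPM in replicate 1 and 159 TPM in replicate 2. Neurod2 and Tbr1 were not called. Endothelial markers summed to 66.2 and 57.4 TPM, with 2 of 3 called higher in replicate 1, and oligodendrocyte precursor markers to 92.7 and 86.1 TPM, with 2 of 3 called higher in replicate 1 and 1 in replicate 2. Astrocyte markers summed to 217 and 226 TPM (1 of 4 higher in replicate 1, 3 in replicate 2) and hippocampal markers to 63.9 and 50.6 TPM (1 of 3 each way). Myelinating oligodendrocyte markers summed to 29.2 and 33.9 TPM (1 of 4 higher in replicate 2), thalamic markers to 47.6 and 44.1 TPM (1 of 4 higher in replicate 2) and microglial markers to 21.8 and 25.5 TPM (0 of 3 called by the exact test, and 1 of 3 at an unadjusted p under 0.05). The part of these differences in the calls of the 5 members was not tested.

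Partner and related genes were called in both directions, beside the 26.7% of all genes tested and 33.5% of detected coding genes that were called. Of the presynaptic partners, Ptprd and Ptprf were called higher in replicate 1 and Ptprs, Nrxn2 and Nrxn3 higher in replicate 2. Of the 20 other leucine-rich repeat organizers, 3 were called higher in replicate 1 and 6 higher in replicate 2, and none of these 9 differed by 2-fold. Of the 6 glypicans, Gpc2 was called higher in replicate 1 and Gpc1 higher in replicate 2.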

How the data were processed

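Total RNA of 2 left cortex samples was analysed as a single group, replicate numbers being those of the labels. The authors deposited gene tables with expected counts and TPM and transcript tables with each transcript's percent of its gene, per the file headers, plus a further transcript table of estimated counts and TPM (the other quantification). The deposited notes name mm10 and GENCODE M21. Which aligner and quantifiers ran is not given in the sources used here. Libraries held 26897687 and 29511737 expected counts, of which spike-in rows, kept out of library sizes and tests, took 0.323 and 0.351%. Counting error alone underlies the intervals of the log2 ratios, while the TPM intervals of Slitrk6 are those deposited.

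Levels are TPM as deposited, mean ± SD. Detection meant at least 1 TPM in both libraries. Expected counts, rounded to whole numbers, were scaled with TMM factors (edgeR 4.0.16, R 4.3.3) and given a prior count of 0.5 for log2 ratios. Each gene's exact binomial test (two-sided, scipy 1.17.1) was adjusted by Benjamini-Hochberg over genes with 10 or more counts, at a threshold of 0.05, and was tested on simulated data. The simulated counts held counting error only, with planted changes larger than the folds of the called members. Spread between animals was therefore not covered. DESeq2 1.42.0 gave alternative size factors. Coordinates and transcript classes are those of M21. Identity comes from global alignment (BLOSUM62, Biopython 1.88) of translated M21 coding sequences. Promoters are from RefSeq, GRCm38.p6.

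Members, lists and tests were chosen with earlier results of these data known. All members were named, every gene of lists with up to 6 genes, and of the longer list the 4 highest, the lowest and any called gene with a 2-fold difference. Other named genes come from the marker lists. Some list genes are not reported here.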

Additional observations from a re-analysis of the deposited data

How the results depend on the processing

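The 5 calls between the libraries held for the same genes, in the same direction, under total count scaling, DESeq2 size factors, count minima of 1 and 50, coding genes alone and the other quantification. Those settings called from 17.6% (minimum of 1) to 33.7% (minimum of 50) of all genes tested, against 26.7% in the main setting. Spike-in scaling, which moved the median log2 ratio of all genes to 0.15, gave 7 calls, adding Slitrk3 and Lrrtm2. It called 34.4% of all genes tested, and 89.5% of the called genes were higher in replicate 1. The count of detected members was 9 under every alternative tried, TPM minima of 0.5 and 2 included, and 6 neighbor pairs were separate in the other quantification and 5 over coding models only. In the other quantification the Slitrk sum was 177.5 TPM, the Lrrtm sum 149.6 TPM and the log2 ratio of Slitrk over Lrrtm 0.25. TPM rescaled over nuclear protein-coding genes put the sums at 242.6 and 183.1 TPM. Summing coding models only, chosen after the data were seen, gave a Lrrtm sum of 73.2 TPM and a log2 ratio of 0.76. A pseudocount of 1 TPM gave 0.40, and posterior mean TPM 0.39. Leaving out each replicate in turn only repeats the values of the other library, so it was no separate check. These were Slitrk sums of 116.12 to 131.8 TPM, Lrrtm sums of 90.83 to 96.25 TPM and log2 ratios of 0.35 to 0.45. In either library alone, 9 members were detected. Of the single-gene levels, ratios and transcript shares under these alternatives, 107 stayed within their spread or on their side of the threshold, 31 moved beyond their spread and 2 newly passed. With 2 libraries, a level with 1 left out always stays within the SD, so those entries among the 107 were fixed in advance. Also fixed were the coding-only levels of the Slitrk genes and Lrrtm4, all of whose models are coding. The transcript shares of Slitrk1 and Slitrk6, with 1 model each, were fixed too. The other quantification and TPM rescaled over nuclear protein-coding genes raised the level of every member, each beyond its spread. The leading model changed for Lrrtm1 and Lrrtm3 in the other quantification. Rescaling multiplies all genes of a library by the same factor, so the rise of every member under it was fixed in advance. The cause of the shifts in the other quantification was not tested. No paired analysis was possible because the 2 libraries form 1 group. With 2 libraries, no test across animals was made, and the spread rests on 2 values.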

Other observations

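Tentative gene models lie inside and beside some members. Within the Lrrtm4 span, 8 models of the class TEC, an annotation class for candidate loci awaiting experimental proof, lie on the same strand as Lrrtm4. In the gene tables they summed to 15.1 TPM in replicate 1 and 8.42 TPM in replicate 2, and 5 of the 8 reached 1 TPM in both libraries. In the other quantification all 8 passed 1 TPM in both libraries. Gm44231, the lowest in the gene tables at 0.40 and 0.18 TPM, was the highest there at 14.5 and 9.78 TPM. Each of the 8 models had more reads in replicate 1, with 27 to 134 reads there and 14 to 93 in replicate 2, although replicate 2 was the deeper library. Lrrtm4 itself had 1017 reads in replicate 1 and 1136 in replicate 2. Gm4409, an antisense model over the start of Lrrtm4, had 1 read in replicate 1 and 0 in replicate 2.

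The lincRNA model Gm20754 starts 8513 bases from Slitrk3 on the opposite strand. It stood at 6.46 TPM in replicate 1 and 5.55 TPM in replicate 2, from 71 and 57 reads. In the other quantification it was lower in replicate 1, at 3.78 TPM, than in replicate 2, at 5.99 TPM. These models were named after their values were seen.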
